A study of Homo sapiens with 12 samples.

Results

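The proteasome is the protease that degrades most ubiquitin-tagged proteins of the cell, and its genes were followed here across SW480 cells with lowered or raised GPD1L. The set held the genes whose symbol begins with PSMA, PSMB, PSMC, PSMD, PSME, PSMF or PSMG followed by a number, averaging 1 FPKM or more in each of the deposited tables. The immunoproteasome genes PSMB8 and PSMB9 were left out by that rule. The pattern matched 47 symbols in each table, of which 2 were the excluded genes, and the other 45 all passed the expression minimum. The set is thus 45 of the 12345 genes listed in both tables.

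SW480 is a cell line derived from a human colon adenocarcinoma, and GPD1L encodes a relative of glycerol-3-phosphate dehydrogenase 1. Cells stably carrying a hairpin that targets GPD1L (shGPD1L) were set against cells carrying a control hairpin (shNC). Cells overexpressing GPD1L (OE) were set against cells with the vector (Vector). There were 3 poly(A) RNA libraries in each of these 4 groups. The genotype labels count up in the gene name along the replicates (shGPD1L, shGPD2L and shGPD3L, and likewise in OE), while the titles give a single group name, and the groups follow the titles. Neither the number of clones nor whether a group's libraries were grown apart is stated, so the p-values below reflect library-to-library spread that may be technical. Values are FPKM, which count sequenced fragments relative to transcript length and to the library's mapped total. They summed to between 421714 and 444794 FPKM per library, and the read depth is unknown. GPD1L had 1.55, 1.26 and 2.23 FPKM in shGPD1L and 8.68, 8.01 and 9.10 FPKM in shNC, and 22.3, 22.8 and 22.1 FPKM in OE against 10.7, 10.2 and 11.1 FPKM in Vector. It was thus low in all 3 shGPD1L libraries, replicate 3 included, and high in all 3 OE libraries. Of 11 colon epithelial markers 9 were listed for the hairpin lines and 11 for the overexpression lines. Their summed level was 4239 to 4504 FPKM in shGPD1L, 5093 to 5452 FPKM in shNC, 4188 to 4321 FPKM in OE and 3856 to 3963 FPKM in Vector, carried by KRT8, KRT18 and KRT19. These 3 keratins were lower in shGPD1L than in shNC and higher in OE than in Vector, without overlap. The other 8 markers were all lower in OE without overlap, such as CDX1 with 14.5 ± 0.479 FPKM in OE and 24.3 ± 1.98 FPKM in Vector (SD, n = 3 each), and summed to 461 to 475 FPKM in OE and 577 to 584 FPKM in Vector. Of the other 6 listed for the hairpin lines 1, EPCAM, was lower in shGPD1L without overlap. Of the leukocyte markers 1 of 3 was listed, CD14, with 1.38 to 2.45 FPKM in shGPD1L, 2.43 to 2.69 FPKM in shNC, 0.629 to 1.04 FPKM in OE and 1.65 to 2.07 FPKM in Vector. Of the fibroblast markers 1 of 3, COL1A1, stayed under 1 FPKM in all 12 libraries, and PTPRC, CD3E, PECAM1, VWF, COL3A1 and DCN were not listed. The part of these marker levels in the results was not tested. In bulk RNA, fewer cells of a type and less RNA per cell cannot be told apart.

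The proteasome is built from a barrel-shaped 20S core and a 19S regulatory cap. The core has rings of alpha subunits, which form the gate, and rings of beta subunits, of which PSMB5, PSMB6 and PSMB7 carry the protease activity. The cap has a base with a ring of ATPases, which unfold and thread the substrate, and a lid that removes the ubiquitin chain. Dedicated chaperones assemble both particles, other activators can take the place of the cap, and interferon-induced beta subunits can replace the standard catalytic ones. In human cells the transcription factor NFE2L1 raises proteasome genes together when proteasome activity is short.

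All 45 genes were well above the expression minimum in every group. Group means ran from 7.20 FPKM for PSMB10 to 166 FPKM for PSMB4 in shGPD1L, from 8.92 FPKM for PSMB10 to 171 FPKM for PSMB1 in shNC, from 7.47 FPKM for PSMB10 to 153 FPKM for PSMB1 in OE, and from 9.56 FPKM for PSMC3IP to 147 FPKM for PSMB1 in Vector. Subunits of a single ring, which stand in equal numbers in the particle, did not have equal RNA levels. In the alpha ring the highest mean, that of PSMA7, was 6.39 times the lowest, that of PSMA5, in shGPD1L, 6.48 times in shNC, 5.14 times in OE and 5.11 times in Vector. In the ring of base ATPases PSMC1 was lowest in each group, with 23.5 FPKM in shGPD1L, 26.4 in shNC, 25.9 in OE and 21.6 in Vector. The chaperones PSMD5, PSMD9 and PSMD10 of the 19S base had group means between 17.2 and 26.3 FPKM. Together the 45 genes made up 0.660%, 0.724% and 0.543% of the summed FPKM in shGPD1L and 0.672%, 0.623% and 0.695% in shNC. They made up 0.602%, 0.605% and 0.598% in OE and 0.543%, 0.542% and 0.560% in Vector, where the groups did not overlap.

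**Figure D1:**
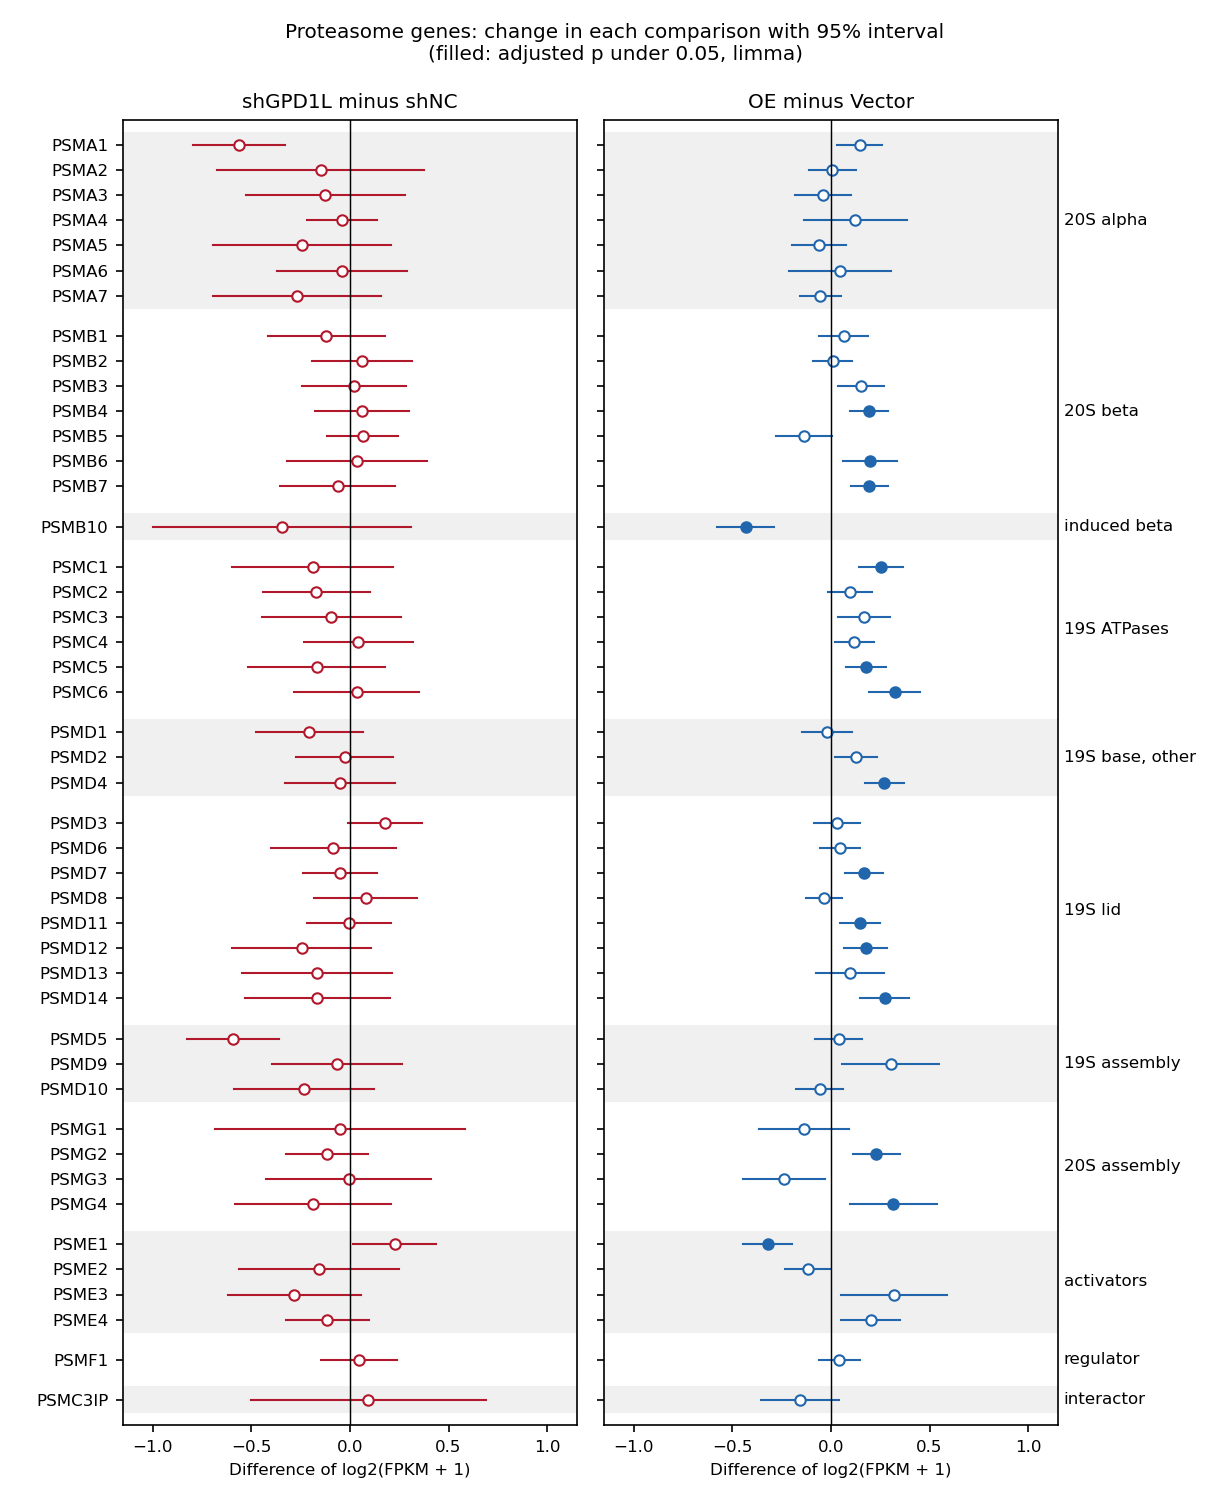
Difference of log2(FPKM + 1) for each of the 45 genes, ordered by role, for shGPD1L minus shNC (left) and OE minus Vector (right); bars are 95% intervals and filled points have an adjusted p under 0.05 by limma. In the overexpression 13 genes lie to the right and 2 to the left with filled points, and in the knockdown no point is filled.

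Overexpression of GPD1L came with small rises of proteasome genes, mostly of the 19S cap. By limma 13 of the 45 genes rose in OE, or 28.9%, against 12.2% of all 12208 genes tested, and 2 fell, against 10.3% of all genes, 22.4% in all (Benjamini-Hochberg adjusted p under 0.05). The log2 change of the 45 ran from -0.43 to 0.32 with a median of 0.10, beside 0.02 over all genes. Of the 45, 32 were above 0, beside 55.0% of all genes. The comparison over all genes includes genes of lower level than the 45. With a minimum of 5 FPKM, which all 45 passed, 1454 of 8997 genes rose, 1025 fell and 57.2% were above 0. The 45 then gave the same 13 and 2 calls. The median SD within groups was 0.07 in OE and 0.05 in Vector for the 45, beside 0.08 in each over all genes. At an unadjusted p under 0.05 the counts were 21 higher and 4 lower, against 21.4% and 16.5% of all genes, 37.9% in all. The called rises lay in the cap with 8 of 17 genes, in the beta ring with 3 of 7 and among the 20S chaperones with 2 of 4, while limma called none of the 7 alpha subunits, of which 1, PSMA1, had an unadjusted p under 0.05. In 20 genes the lowest OE library was above the highest Vector library and in 4 the order was the reverse, against 24.2% and 17.6% of all genes, 41.8% in all. The call of PSMD11 was lost under 10 of the 16 other settings or library sets tried, and those of PSMB6, PSMD12, PSMG4, PSMC5 and PSMD7 under 6 to 9. Equal library totals kept all 15 calls and added 8. The count in both directions ranged from 9 to 23, and that of rises from 7 to 21.

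Among the base ATPases 3 of 6 rose. PSMC6 had 51.4, 49.6 and 44.9 FPKM in OE and 37.7, 38.7 and 39.6 FPKM in Vector. All OE values were above all Vector values, and the log2 change was 0.32 ± 0.06 (SE, limma adjusted p = 0.00668). PSMC1 had 26.3, 25.1 and 26.3 FPKM in OE against 21.0, 22.3 and 21.4 FPKM in Vector, a log2 change of 0.25 ± 0.05 (SE, limma adjusted p = 0.00903) with no overlap. Of the exon bases of PSMC1, 75.8% also lie in exons of NRDE2 on the other strand, so its reads are uncertain, and NRDE2 itself had a log2 change of 0.03. PSMC5 had 82.8, 80.2 and 76.7 FPKM in OE and 72.0, 70.9 and 68.6 FPKM in Vector (log2 change 0.18, limma adjusted p = 0.025), also without overlap. It shares 19.5% of its exon bases with FTSJ3, whose log2 change was 0.02. The ATPases PSMC2, PSMC3 and PSMC4 had log2 changes of 0.10, 0.17 and 0.12 and did not pass the test, though in each the OE values lay above the Vector values.

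In the rest of the base PSMD4, the ubiquitin receptor that binds the chain on a substrate, had 73.9, 79.3 and 76.2 FPKM in OE against 62.1, 62.9 and 64.7 FPKM in Vector. Each OE library was above each Vector library, with a log2 change of 0.27 ± 0.04 (SE, limma adjusted p = 0.00475). The scaffolds PSMD1 and PSMD2 had log2 changes of -0.02 and 0.13 and were not called. In the lid 4 of 8 genes rose. PSMD14, the metalloprotease that cuts the ubiquitin chain off the substrate, had 65.6, 63.8 and 59.9 FPKM in OE and 49.5, 51.7 and 55.1 FPKM in Vector, with no overlap. Its log2 change was 0.27 ± 0.05 (SE, limma adjusted p = 0.0111), and those of the lid subunits PSMD12, PSMD7 (its partner in the lid) and PSMD11 were 0.18, 0.17 and 0.15. PSMD7 shares 30.7% and PSMD11 9.38% of its exon bases with a gene on the other strand that is not listed in these tables. PSMD3, PSMD6, PSMD8 and PSMD13 lay between -0.04 and 0.10 and were not called. Summed over the 17 cap genes the level was 885 ± 10.6 FPKM in OE and 800 ± 8.04 FPKM in Vector (SD, n = 3 each).

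In the core the beta ring held the rises. PSMB7, the subunit with trypsin-like activity, had 130, 125 and 127 FPKM in OE and 110, 108 and 115 FPKM in Vector, a log2 change of 0.20 ± 0.04 (SE, limma adjusted p = 0.0127). PSMB6, with caspase-like activity, had 58.3, 65.6 and 64.6 FPKM in OE against 53.4, 58.0 and 52.4 FPKM in Vector (log2 change 0.20, limma adjusted p = 0.0477). PSMB4, which is not catalytic, had 148, 156 and 146 FPKM in OE and 132, 134 and 127 FPKM in Vector (log2 change 0.19, limma adjusted p = 0.0155). The groups did not overlap in any of these 3. The third catalytic subunit, PSMB5, had 77.9, 75.9 and 81.5 FPKM in OE and 84.9, 94.2 and 80.3 FPKM in Vector, with overlap and a log2 change of -0.14 that did not pass. PSMB1, PSMB2 and PSMB3 had log2 changes of 0.06, 0.01 and 0.15, and the alpha subunits PSMA1 to PSMA7 ran from -0.06 to 0.15, none of them called. Summed over its 14 genes the core had 1222 ± 5.06 FPKM in OE and 1162 ± 30.1 FPKM in Vector (SD, n = 3 each).

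Among the assembly chaperones PSMG2, which pairs with PSMG1 to start the alpha ring, had 43.3, 39.1 and 40.8 FPKM in OE and 35.5, 33.5 and 35.6 FPKM in Vector. The groups did not overlap and the log2 change was 0.23 ± 0.05 (SE, limma adjusted p = 0.0182). It shares 13.9% of its exon bases with CEP76 on the other strand, and CEP76 moved the same way, with a log2 change of 0.22 (limma adjusted p = 0.0317), a part in the result that was not tested. PSMG4, which pairs with PSMG3, had 13.2, 15.1 and 16.4 FPKM in OE against 12.2, 10.3 and 12.8 FPKM in Vector (log2 change 0.32, limma adjusted p = 0.0474). The lowest OE library was above the highest Vector library. It shares 13.3% of its exon bases with SLC22A23 on the other strand, which had a log2 change of -0.27. PSMG1 and PSMG3 had log2 changes of -0.14 and -0.24 and the 19S chaperones PSMD5, PSMD9 and PSMD10 of 0.04, 0.30 and -0.06, and none of these passed.

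The genes that fell in OE were PSMB10 and PSME1, which serve the interferon-induced form of the particle. PSMB10, the induced subunit that replaces PSMB7, had 7.63, 7.41 and 7.37 FPKM in OE and 9.81, 10.4 and 11.1 FPKM in Vector, a log2 change of -0.43 ± 0.06 (SE, limma adjusted p = 0.00323). PSME1, a subunit of the 11S activator that can cap the core in place of 19S, had 74.3, 84.7 and 81.4 FPKM in OE and 97.2, 101 and 102 FPKM in Vector. Its log2 change was -0.32 ± 0.05 (SE, limma adjusted p = 0.00585), and in both genes every OE library was below every Vector library. PSMB10 shares 34.8% of its exon bases with AC040162.1, a same-strand gene not listed in these tables. PSME2, which forms the 11S ring with PSME1, had a log2 change of -0.12 and did not pass. PSME3, a nuclear relative, had 76.2, 80.2 and 56.6 FPKM in OE and 59.8, 54.6 and 54.0 FPKM in Vector, with overlap. PSME3, PSME4 (another nuclear activator) and PSMF1 (a regulator that binds the core) had log2 changes of 0.32, 0.20 and 0.04, and PSMC3IP had -0.16. PSMC3IP is named for binding PSMC3 but acts in meiotic recombination, and none of these 4 was called. PSMC3IP shares 29.9% of its exon bases with MLX on the other strand, which is listed in these tables.

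The induced share of the catalytic genes was lower in OE. Of the summed FPKM of the 6 catalytic beta genes, the induced PSMB8, PSMB9 and PSMB10 held 15.8%, 17.1% and 16.3% in OE and 21.3%, 20.2% and 22.3% in Vector. The means were 16.4% ± 0.640 and 21.3% ± 1.06 (SD, n = 3 each), and the groups did not overlap. In the hairpin lines the share was 12.3%, 12.4% and 8.92% in shGPD1L and 13.3%, 11.5% and 12.5% in shNC, with overlap. The excluded genes PSMB9 and PSMB8 fell in OE too, by 0.70 and 0.26 on the log2 scale (limma adjusted p = 0.0043 and 0.0153). PSMB9 had 6.91, 8.29 and 5.91 FPKM in OE and 11.5, 11.2 and 13.2 FPKM in Vector, while PSMB8 averaged 38.1 ± 2.50 FPKM in OE and 45.7 ± 1.28 FPKM in Vector (SD, n = 3 each). With 3 libraries against 3 an exact two-sided permutation test cannot give a p under 0.1, so the shares are given without a test.

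**Figure D2:**
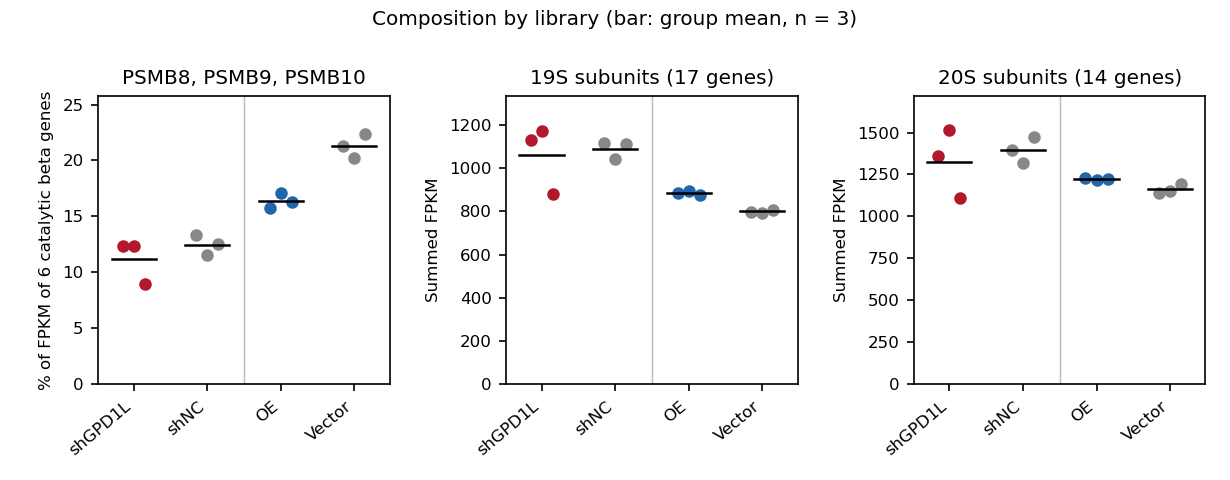
Share of the summed FPKM of the 6 catalytic beta genes held by PSMB8, PSMB9 and PSMB10 (left, percent), and summed FPKM of 17 cap genes (middle) and 14 core genes (right), 1 point per library with bars at the group means. The induced share is 15.8% to 17.1% in OE and 20.2% to 22.3% in Vector, and the cap sum is 874 to 895 FPKM in OE and 793 to 809 FPKM in Vector.

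In the knockdown no proteasome gene passed the test. By limma 0 of the 45 were called, beside 0.592% of all 12156 genes tested (0.115% higher and 0.477% lower). At an unadjusted p under 0.05, 1 was higher and 2 were lower, against 6.04% and 10.3% of all genes, 16.3% in all. The log2 change ran from -0.59 to 0.23 with a median of -0.08, beside -0.04 over all genes. Of the 45, 33 were below 0 and 12 above, beside 41.6% of all genes above 0. The groups were apart in 4 genes, higher in PSME1 and PSMD3 and lower in PSMD5 and PSMA1, against 9.54% and 15.1% of all genes, 24.7% in all. By role the median log2 change was -0.15 for the alpha ring, 0.04 for the beta ring, -0.13 for the ATPases, -0.07 for the lid, -0.23 for the 19S chaperones and -0.08 for the 20S chaperones.

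The shGPD1L libraries did not move together. In replicate 3 the median of the 45 genes lay 0.39 log2 units below the shNC mean, while replicates 1 and 2 lay at -0.01 and 0.09. Replicate 3 had the lowest value of the 6 libraries in 38 of 45 genes, or 84.4%, against 36.7% of all genes tested. It was also lowest for 8 of 8 genes of the CCT chaperonin, a folding complex whose genes had group means of 113 to 255 FPKM in shGPD1L and 127 to 271 FPKM in shNC, above most proteasome genes, and for 7 of 10 genes of the COP9 signalosome, which is built like the lid. Over all genes its score on the first principal component was -29.1, against -0.32 to 12.1 in the other 5 libraries. Within groups the median SD of the 45 genes was 0.23 in shGPD1L and 0.10 in shNC, and 0.07 in OE and 0.05 in Vector, on the log2 scale. Without replicate 3 of shGPD1L the median turned to 0.06, and 32 of 45 genes were above 0, beside 47.1% of all genes. Limma then called 2, both lower, against 3.21% of all genes lower, 1.8% higher and 5.01% in all. At an unadjusted p under 0.05 there were then 7 higher and 3 lower, 10 of 45 beside 23.9% of all genes, with PSMC3IP at 0.43 and PSMG1 at 0.32 the farthest up.

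**Figure D3:**
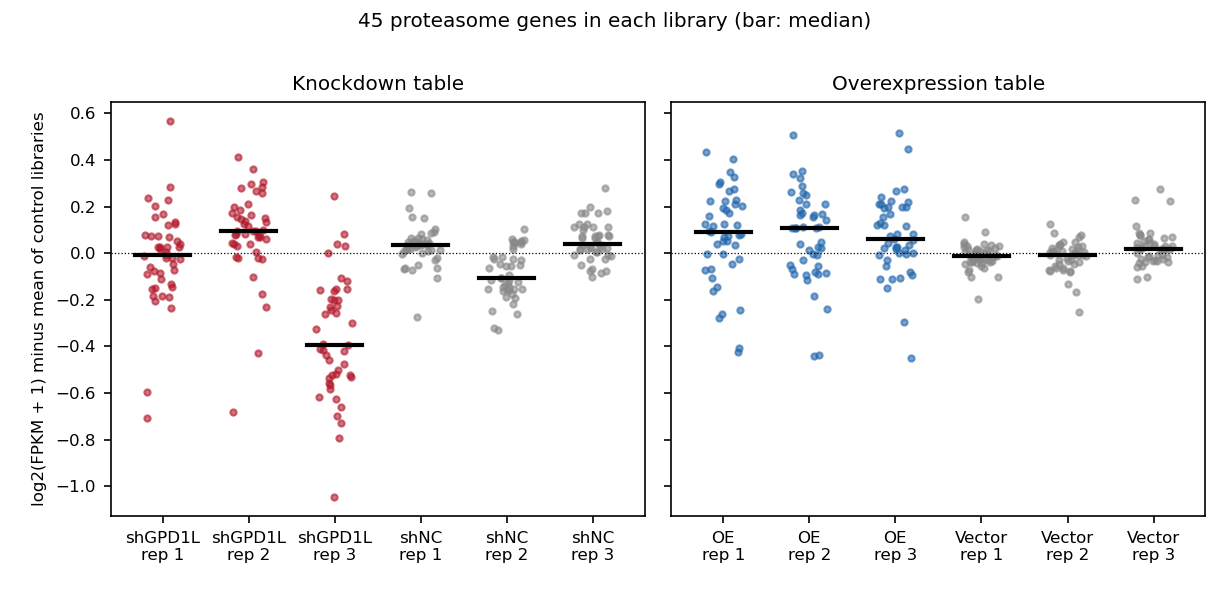
Deviation of each of the 45 genes from the mean of the control libraries, in log2(FPKM + 1), with 1 column of points per library and a bar at the median. In shGPD1L replicate 3 the median is -0.39, in the other shGPD1L libraries -0.01 and 0.09, and in OE 0.09, 0.11 and 0.06.

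The lowest 2 changes in the knockdown were those of PSMD5 and PSMA1, and the sizes of these changes did not rest on replicate 3. PSMD5, the chaperone that holds PSMC1 and PSMC2 during assembly of the base, had 15.7, 16.0 and 19.8 FPKM in shGPD1L and 26.2, 27.3 and 25.3 FPKM in shNC. All shGPD1L values were below all shNC values, with replicate 3 the nearest to shNC. The log2 change was -0.59 ± 0.10 (SE, limma adjusted p = 0.0564), and without replicate 3 it was -0.69 (limma adjusted p = 0.00684). PSMA1, an alpha ring subunit, had 58.5, 65.9 and 55.9 FPKM in shGPD1L and 91.6, 79.7 and 96.3 FPKM in shNC, again with no overlap. Its log2 change was -0.56 ± 0.10 (SE, limma adjusted p = 0.0672), and -0.51 without replicate 3 (limma adjusted p = 0.0304). Leaving out replicate 3 was the only 1 of 16 other settings or library sets in which either gene was called. Over these the limma adjusted p reached 0.259 for PSMD5 and 0.31 for PSMA1. PSME1 had 89.4, 97.3 and 95.2 FPKM in shGPD1L against 83.3, 71.8 and 85.8 FPKM in shNC, a log2 change of 0.23 that did not pass (limma adjusted p = 0.277). PSMD3, a lid subunit, had 94.6, 87.7 and 82.2 FPKM in shGPD1L and 76.4, 80.0 and 76.4 FPKM in shNC, with a log2 change of 0.18 (limma adjusted p = 0.323). Summed FPKM of the beta ring over that of the alpha ring was 1.65, 1.55 and 1.74 in shGPD1L and 1.47, 1.46 and 1.35 in shNC, a ratio looked at after its values were seen. The subunits PSMA2, PSMA3, PSMA4, PSMA5, PSMA6 and PSMA7 had log2 changes between -0.27 and -0.04, each with overlapping groups.

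The effects of overexpression and knockdown differed by limma for 4 of the 45 genes, beside 14.1% of all genes tested. In a limma fit over all 12 libraries, OE minus Vector less shGPD1L minus shNC, 3 of the 45 were higher, or 6.67%, and 1 lower. Of 11208 genes tested 9.14% were higher and 5% lower, 14.1% in all. The 4 groups share an estimate of the spread in this fit. The median SD of the 45 genes was 0.23 in shGPD1L, 0.10 in shNC, 0.07 in OE and 0.05 in Vector. The p-values may thus be too small where a difference rests on the knockdown. This holds for PSMA1 and PSMD5, which the full knockdown fit did not call. The difference was 0.71 ± 0.11 for PSMA1 (SE, limma adjusted p = 0.00352), with log2 changes of 0.15 in OE and -0.56 in shGPD1L. It was 0.63 ± 0.11 for PSMD5 (SE, limma adjusted p = 0.00578), with 0.04 and -0.59, and 0.35 ± 0.10 for PSMG2 (SE, limma adjusted p = 0.0432), with 0.23 and -0.12. PSME1 was the gene with the opposite sign, at -0.55 ± 0.11 (SE, limma adjusted p = 0.00793), with -0.32 in OE and 0.23 in shGPD1L. PSMA1, PSMD5 and PSME1 passed in all 22 other settings or library sets, and PSMG2 in 9 of them. Without shGPD1L replicate 3 the count was 8. PSMD12 and PSME4 were then also higher and PSMG1 and PSMC3IP also lower, 5 higher and 3 lower in all, against 13.8% and 9.15% of all genes, 22.9% in all. PSMD5 had 25.8, 23.7 and 23.7 FPKM in OE and 23.2, 23.9 and 24.1 FPKM in Vector, with overlap, and PSMA1 had 94.4, 89.9 and 86.3 FPKM in OE and 82.4, 77.9 and 84.0 FPKM in Vector, without. PSMA1 shares 24.7% of its exon bases with AC018523.2, a same-strand gene not listed in these tables, and CEP76, which overlaps PSMG2, had a difference of effects of 0.42 (limma adjusted p = 0.0422). PSMG2 had 26.8, 31.5 and 26.5 FPKM in shGPD1L and 31.0, 29.5 and 31.5 FPKM in shNC, which overlapped. PSMB10, which fell in OE, had 7.96, 9.89 and 3.76 FPKM in shGPD1L and 10.2, 7.20 and 9.29 FPKM in shNC, and its difference of -0.09 had a 95% interval from -0.79 to 0.61.

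**Figure D4:**
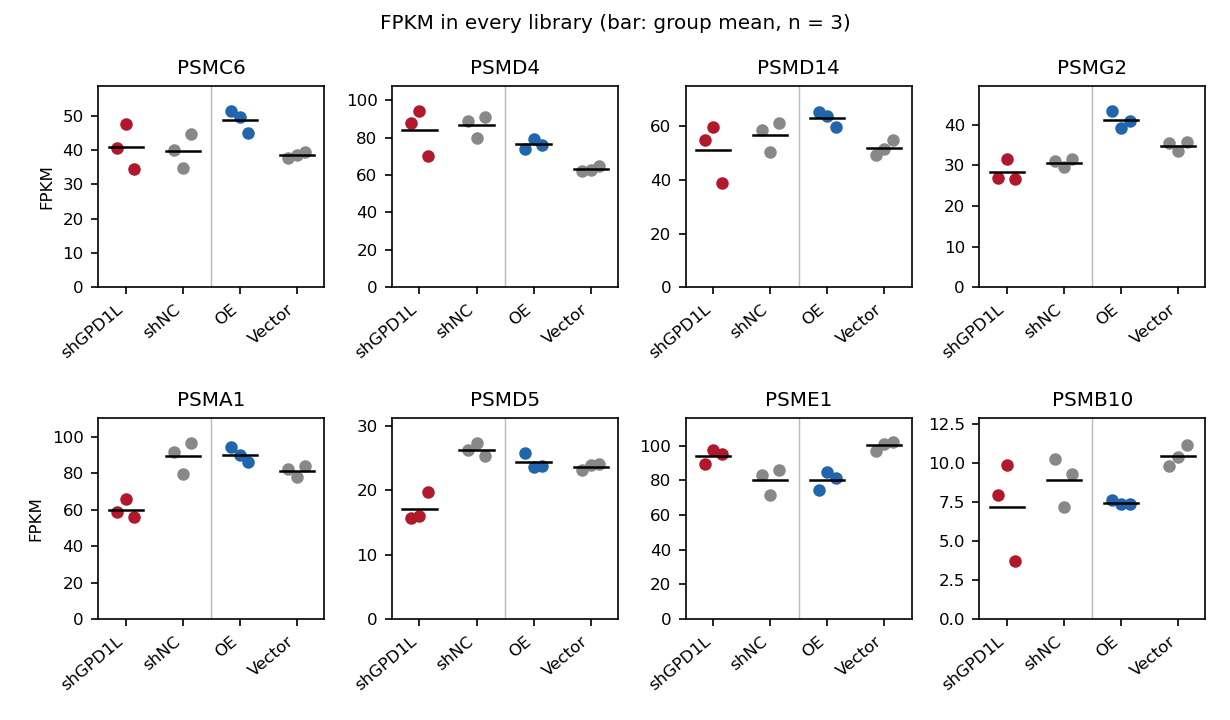
FPKM in each of the 12 libraries for 4 genes that rose in OE (top: PSMC6, PSMD4, PSMD14, PSMG2) and for PSMA1, PSMD5, PSME1 and PSMB10 (bottom), with bars at group means; hairpin lines are left of the grey line. PSMD5 is at 15.7 to 19.8 FPKM in shGPD1L and at 25.3 to 27.3 FPKM in shNC, and PSME1 at 74.3 to 84.7 FPKM in OE and 97.2 to 102 FPKM in Vector.

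The promoters of these 4 genes are shown because their 2 effects differed. Each is RefSeq's sequence on GRCh38.p14 from 250 bases before to 50 after a start that RefSeq gives, on the gene's strand. In GENCODE 29 on GRCh38 the genes span chr11:14504874-14643635 (PSMA1), chr9:120815496-120842984 (PSMD5), chr18:12658043-12725740 (PSMG2) and chr14:24136158-24138967 (PSME1). The windows of PSMA1 and PSMG2 lie wholly inside these spans, and other starts of the genes were not searched. Capitals mark the core of the antioxidant response element, TGACNNNGC, the motif through which NFE2L1 and NFE2L2 act with small MAF proteins.
PSMA1, chr11:14520337-14520636, minus strand: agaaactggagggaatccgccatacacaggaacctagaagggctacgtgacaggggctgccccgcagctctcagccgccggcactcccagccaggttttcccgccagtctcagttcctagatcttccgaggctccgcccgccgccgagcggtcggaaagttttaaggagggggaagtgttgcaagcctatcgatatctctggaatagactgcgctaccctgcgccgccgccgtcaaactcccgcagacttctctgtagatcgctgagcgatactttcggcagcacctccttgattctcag
PSMD5, chr9:120842873-120843172, minus strand: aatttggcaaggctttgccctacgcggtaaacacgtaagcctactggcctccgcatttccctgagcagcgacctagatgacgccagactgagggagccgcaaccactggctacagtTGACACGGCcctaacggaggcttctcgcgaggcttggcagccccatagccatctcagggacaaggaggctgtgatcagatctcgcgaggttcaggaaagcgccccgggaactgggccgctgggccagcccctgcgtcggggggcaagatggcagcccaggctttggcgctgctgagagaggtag
PSMG2, chr18:12658488-12658787, plus strand: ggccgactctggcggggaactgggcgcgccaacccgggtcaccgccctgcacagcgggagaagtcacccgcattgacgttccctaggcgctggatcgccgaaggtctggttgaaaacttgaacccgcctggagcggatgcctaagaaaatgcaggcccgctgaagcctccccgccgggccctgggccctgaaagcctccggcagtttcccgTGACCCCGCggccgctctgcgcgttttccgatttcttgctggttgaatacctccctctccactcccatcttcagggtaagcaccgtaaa
PSME1, chr14:24135944-24136243, plus strand: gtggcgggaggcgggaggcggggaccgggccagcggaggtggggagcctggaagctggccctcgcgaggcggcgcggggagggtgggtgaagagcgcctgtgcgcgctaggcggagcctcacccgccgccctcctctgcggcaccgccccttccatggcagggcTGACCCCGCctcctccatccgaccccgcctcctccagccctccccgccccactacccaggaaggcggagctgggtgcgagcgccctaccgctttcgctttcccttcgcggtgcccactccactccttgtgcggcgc
The core stands at position -134 in PSMD5, -39 in PSMG2 and -86 in PSME1, counted from the start used, and the PSMA1 window holds none of the 4 motifs searched. The match in PSME1, which moved against the others, has the same letters as that in PSMG2.

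The set of RefSeq promoters used here held 39 of the 45 genes, and a single start was used for each. PSMA7, PSMB1, PSMB6, PSMB7, PSMD4 and PSMG3 had no entry in it. Searched on both strands, the core TGACNNNGC stood in 12 of 39, or 30.8%, against 15.2% of the 8938 promoters of genes averaging 1 FPKM or more in both tables and 13.6% of all 27305 promoters. Of the 13 genes that rose in OE, PSMB6, PSMB7 and PSMD4 were thus not searched. The core stood in 2 of the 10 searched promoters of genes that rose in OE. It stood in 9 of the 27 searched promoters of genes not called there. CCAAT stood in 18 of 39, or 46.2%, against 36.9% of expressed genes, and in 3 of the 10 that rose. The cyclic AMP response element TGACGTCA stood in 0 of 39, against 3.45% of expressed genes, and the C/EBP-ATF element TGATGNAA in 1, that of PSMF1, against 1.45%. No pair of these motifs can match at the same start on the same strand, though matches may partly overlap. A match is a string of letters, not a shown binding site.

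Genes around the proteasome gave the following counts, read against 12.2% of all genes higher and 10.3% lower in OE. Of 20 further parts and partners 6 rose and 3 fell in OE. ECPAS, a scaffold that joins core and cap, had 26.5, 25.5 and 25.8 FPKM in OE and 19.04, 18.6 and 20.5 FPKM in Vector (log2 change 0.40, limma adjusted p = 0.00213). In the hairpin lines it had 13.3, 14.2 and 15.2 FPKM in shGPD1L and 20.9, 19.7 and 19.9 FPKM in shNC, a log2 change of -0.48 that missed the threshold (limma adjusted p = 0.0558). Neither pair of groups overlapped, and its difference of effects was 0.88 ± 0.09 (SE, limma adjusted p = 0.000283). The ubiquitin receptor ADRM1 rose by 0.23 on the log2 scale in OE, while SEM1, the small lid subunit, fell by 0.32 on the log2 scale. In the hairpin lines ADRM1 averaged 102 FPKM in shGPD1L and 90.5 FPKM in shNC, with overlap. USP14, the deubiquitinase that docks on the cap, was picked after its values were seen. It rose by 0.19 in OE and had -0.30 in shGPD1L, log2 changes with a difference of effects of 0.48 (limma adjusted p = 0.0235).

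A list of NFE2L1 activation and small MAF partners, which also held NFE2L2 and KEAP1, had 4 of 10 genes that rose in OE and 0 that fell. The small MAF gene MAFF had 23.1, 26.0 and 26.8 FPKM in OE and 17.3, 19.3 and 18.3 FPKM in Vector (log2 change 0.44), and NGLY1, the enzyme that strips sugars from NFE2L1 to activate it, averaged 24.6 ± 1.44 FPKM in OE and 19.1 ± 0.815 FPKM in Vector (SD, n = 3 each; log2 change 0.34). MAFG and NFE2L2 were the other called members, at 0.21 and 0.20, and NFE2L1 itself, at 0.09, was not called. In the knockdown 7 of the 10 were above 0 and 3 below, beside 41.6% of all genes above 0, and 0 were called. MAFG averaged 21.2 FPKM in shGPD1L and 16.0 FPKM in shNC without overlap, and MAFF 18.9 and 15.5 FPKM with overlap. Both means were thus higher in both comparisons, though neither gene was called in the knockdown and shGPD1L replicate 3 was highest in each. MAFG had 17.8, 18.4 and 27.4 FPKM in shGPD1L and 16.5, 14.7 and 16.9 FPKM in shNC. MAFF had 18.2, 16.4 and 22.2 FPKM in shGPD1L and 14.7, 16.9 and 14.8 FPKM in shNC. NGLY1 averaged 17.9 FPKM in shGPD1L and 20.1 FPKM in shNC, with overlap. Of 14 ubiquitin genes and enzymes 2 rose, UBE2D2 and UBA6, each by 0.21 on the log2 scale, and 2 genes that encode ubiquitin fell, UBB by 0.16 and RPS27A by 0.14 on the log2 scale. Of 12 cofactors of VCP, the ATPase that extracts ubiquitinated proteins, 4 rose, with UBXN7 at 0.30 and PLAA at 0.24 the largest.

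Rises were also called in other large complexes. Of 10 COP9 signalosome genes 4 rose, led by COPS2 at 0.41 and COPS7A at 0.24, with a list median of 0.14. Of 8 CCT genes 3 rose, led by CCT8 at 0.22 and CCT4 at 0.20, with a median of 0.12. Of 13 genes of peptide supply to MHC class I 6 fell in OE and 0 rose, and 4 of the 6 were PSMB8, PSMB9, PSMB10 and PSME1, described above. All 13 had a log2 change below 0, with a median of -0.20, and the transcription factor IRF1 (-0.34) and the chaperone TAPBP (-0.23) were the called genes outside the proteasome. In the knockdown limma called 0 genes in each of these 7 lists. At an unadjusted p under 0.05, which 16.3% of all genes met, 3 of 20 partner genes were lower. Higher were 2 of 10 genes of the NFE2L1 and small MAF list, 1 of 10 COP9 genes and 1 of 13 peptide supply genes. The ubiquitin, VCP and CCT lists had 0.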

How the data were processed

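Poly(A) RNA of 12 SW480 libraries was sequenced, and the authors deposited FPKM, 1 table per comparison. The submitters' processing notes name HISAT2, StringTie, DESeq2 and GRCh38 without roles, and neither annotation nor strandedness is stated. No count test was run here, since FPKM are not counts. Low values were not multiples of a common step, so depth is unknown. Overlapping genes may share reads. Identifiers matched GENCODE release 29.

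Each table was tested whole with limma 3.58.1 (R 4.3.3, intensity trend) on log2(FPKM + 1), for genes averaging 1 FPKM or more over the table's 6 libraries, and p-values were adjusted over all genes tested (Benjamini-Hochberg, called under 0.05). Fold changes on this scale understate those of low genes. The test was checked on simulated data, drawn independently for each gene with the same spread in both groups. A shift of a whole library and unequal spread between groups were not simulated. The difference of effects used genes past the minimum in both tables, which may have been normalized separately. The members, lists and rules were chosen with earlier results of these data known, so no pattern is independent support.

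Per-library values were given for the 12 called members with the largest change in OE, the 2 higher and 2 lower members of smallest p in the knockdown, members called in the difference, and up to 2 called genes each way of a list. Alternatives were pseudocounts of 0.1 and 0.5, no minimum, a minimum of 5 FPKM, equal totals, median-of-ratios and quantile scaling, no trend, robust fitting, a replicate block, and leaving out each library. Figures were drawn with matplotlib 3.10.9.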

Additional observations from a re-analysis of the deposited data

How the results depend on the processing

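Proteasome genes called in OE were 15, and 23 with equal library totals (21 higher, 2 lower, median log2 change 0.15); leaving out 1 library gave 9 to 14, and the other settings 10 to 15. PSMC1, PSMC6, PSMD4, PSMD14, PSMB7, PSMB10 and PSME1 were called in all 16 alternatives. In the knockdown 0 were called, or 0 to 2 leaving out 1 library, and the median log2 change ran from -0.18 to 0.06, turning positive without shGPD1L replicate 3 (0.0615); the cause was not tested. In the difference of effects 4 were called, or 3 to 8 leaving out 1 library. With the replicate block, 10, 0 and 3 were called in the overexpression, knockdown and difference; same-numbered libraries correlated at -0.18 to 0.02, none over 0.1, so the numbers were not taken to pair them. Over all genes, 72 were called in the knockdown, but 3 with the replicate block, 27 with quantile scaling and 0 to 609 leaving out 1 library. Over all genes in OE 2740 were called (1484 higher, 1256 lower), with 2441 higher and 975 lower under equal totals and 1550 to 1980 leaving out 1 library. In the difference 1584 were called (1024 higher, 560 lower), but 483 with the replicate block, 629 higher and 795 lower under median-of-ratios scaling, 672 higher and 668 lower under quantile scaling, and 790 to 2572 leaving out 1 library. Of 392 single-gene alternatives 62 lost a call, 2 gained one and 0 changed direction. Depth is unknown, so counting error has no interval, and 3 libraries a group limit what small changes could be called.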

Other observations

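The control lines were not alike in the proteasome genes, with no test across tables that may have been normalized separately. The 45 genes summed to 2940 ± 151 FPKM in shNC and 2401 ± 43.1 FPKM in Vector (SD, n = 3 each), cap over core was 0.783 ± 0.0259 in shNC and 0.689 ± 0.0127 in Vector, and PSMB9 averaged 4.27 ± 0.538 FPKM in shNC and 12.0 ± 1.05 FPKM in Vector.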
